A study of Mus musculus with 22 samples.

Results

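Of the 55681 non-control probes on the mouse oligonucleotide arrays, 743 have a target accession that begins with NR_, the prefix that RefSeq gives to transcripts without a protein product, and these 743 probes are described here. They stand for 626 accessions, of which 573 were found in the RefSeq gene table, 9 were named from the probe lists of the study and 44 kept their accession as a name. By the type of the gene in that table, 435 of the probes are for long noncoding RNAs, 210 for transcribed pseudogenes, 15 for small structural RNAs and 12 for genes typed as protein coding, and 71 have accessions that the table does not list.

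The RNA came from FE1 cells, a single epithelial cell line derived from the lung of the MutaMouse and grown as a monolayer. The cells were incubated for 24 h in medium with Mitsui7, a multi-walled carbon nanotube, at 0 µg/ml (Control, 5 arrays), 12.5 µg/ml (D1, 6 arrays), 25 µg/ml (D2, 5 arrays) or 100 µg/ml (D3, 6 arrays), and cells of every group grew in the same medium with fetal bovine serum and murine epidermal growth factor. On every array the sample was labelled with Cy5 and a reference pool of RNA from mouse cell lines with Cy3, so each value below is a log2 ratio of sample to reference, after loess normalisation within the array. A change is the difference of such ratios between a dose and Control from a limma model with group and slide, and its error is the standard error (SE) of that model. Exposures were made in several separate experiments, fewer than the arrays of a group, so some arrays of a group share an experiment. The labels do not say which, so p-values measure the spread between these arrays, which may be technical, and are too small to the extent that arrays share an experiment.

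Noncoding transcripts do their work as RNA. Small nucleolar RNAs (snoRNAs) guide the modification and processing of ribosomal RNA, and most of them are cut from the introns of longer host transcripts. The spliced exons of such hosts are long noncoding RNAs themselves, known as Gas5 or the Snhg genes, and many begin with a tract of pyrimidines, as the messages of ribosomal proteins do, and are degraded when they are translated. Other long noncoding RNAs act in the nucleus, carry microRNAs, or lie beside or against a protein coding gene.

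The promoters of the 5 snoRNA hosts that were higher at every dose are shown first, since these transcripts lead the results. Each line holds 150 bases from RefSeq on GRCm38.p6, 5′ to 3′ on the strand of the gene, with 100 bases before the annotated start and 50 from it. Where a gene has 2 annotated starts, the more downstream is shown. Capitals mark the unbroken run of C and T that covers the annotated start.

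1110038B12Rik, chr17:34952419-34952568, minus strand: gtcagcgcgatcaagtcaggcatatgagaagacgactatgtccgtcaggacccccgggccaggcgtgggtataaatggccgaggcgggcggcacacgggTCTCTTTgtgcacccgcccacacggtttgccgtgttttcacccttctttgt
2410006H16Rik, chr11:62602777-62602926, plus strand: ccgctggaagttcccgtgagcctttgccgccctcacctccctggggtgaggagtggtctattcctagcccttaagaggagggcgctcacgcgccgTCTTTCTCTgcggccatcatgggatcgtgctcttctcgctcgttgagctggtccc
Gas5, chr1:161035066-161035215, plus strand: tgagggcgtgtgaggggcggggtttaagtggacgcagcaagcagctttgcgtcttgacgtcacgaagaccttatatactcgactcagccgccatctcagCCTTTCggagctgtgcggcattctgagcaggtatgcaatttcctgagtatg
Snhg1, chr19:8723387-8723536, plus strand: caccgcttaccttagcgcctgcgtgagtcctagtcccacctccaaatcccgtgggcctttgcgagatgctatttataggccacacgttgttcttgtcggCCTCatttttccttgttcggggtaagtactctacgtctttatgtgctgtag
Snhg12, chr4:132308578-132308727, plus strand: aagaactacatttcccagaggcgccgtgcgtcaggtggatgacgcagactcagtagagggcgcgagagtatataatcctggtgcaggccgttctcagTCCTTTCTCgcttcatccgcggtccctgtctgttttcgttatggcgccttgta

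The run was 7 bases at 1110038B12Rik, 9 at 2410006H16Rik, 6 at Gas5, 4 at Snhg1 and 9 at Snhg12. A run of at least 5 bases over the start was found in 5 of the 7 snoRNA host genes that were higher at a dose and have an entry in the promoter table, and in 6 of 15 snoRNA host genes of the set. No run covered the other annotated start of 1110038B12Rik, of Gas5 and of Snhg17, so by entry the count was 5 of 10, beside 10.1% of all entries. Over all 27025 genes of the table the share was 11.8%, and over the 320 genes of NR_ probes with an entry it was 11.2%. The run is a description of these letters and no test was made of it. In the whole 300 bases of an entry, read on both strands, the cAMP response element TGACGTCA was found at Gas5 (588 of 32851 promoters hold it) and the TATA box TATAAA at 1110038B12Rik and Snhg1 (13.6% of promoters). The core of the antioxidant response element, TGACNNNGC, was found at Snhg17 (12.4% of promoters). The E-box CACGTG (7.15%), the AP-1 site TGACTCA (5.2%) and the CHOP-ATF4 composite TGATGCAA (0.895%) were found at none of the 7.

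One arm of each of 6 microRNAs of the miR-17-92 cluster on chromosome 14 (RefSeq, GRCm38.p6, plus strand) is given because Mir17hg, known as the host of the cluster, was called at a single dose. In the RefSeq table used here, the entry of Mir17hg contains 1 of these genes, Mir92-1. The seed, bases 2 to 8, is in capitals, and the array did not measure the mature forms.

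mmu-miR-17-5p: cAAAGUGCuuacagugcagguag
mmu-miR-20a-5p: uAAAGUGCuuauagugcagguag
mmu-miR-18a-5p: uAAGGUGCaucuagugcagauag
mmu-miR-19a-3p: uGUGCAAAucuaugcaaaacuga
mmu-miR-19b-3p: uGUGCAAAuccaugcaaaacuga
mmu-miR-92a-3p: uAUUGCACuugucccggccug

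By seed they form 4 groups, of which miR-17-5p with miR-20a-5p and miR-19a-3p with miR-19b-3p each share all 7 bases.

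Before the results, the placing of the arrays and the markers of the cells are given. By the correlation of slide-adjusted deviations over 19430 probes, 7 of the 22 arrays lay closer to the mean of another group than to the other arrays of their own. These were D1 replicate 1 (0.54 to D2, -0.39 to D1), D1 replicate 2 (0.17 to Control, 0.02 to D1), D1 replicate 5 (0.42 to Control, -0.04 to D1), D2 replicate 1 (0.29 to D3, 0.13 to D2), D2 replicate 2 (0.17 to D1, -0.33 to D2), D2 replicate 5 (0.44 to D3, 0.31 to D2) and D3 replicate 6 (0.62 to D2, 0.42 to D3). D1 replicate 1 and D2 replicate 2 had the lowest correlations with their own groups, and calls are also given without both. Of the lung epithelial markers only Krt7 and Krt18 were well above background on all 5 Control arrays, and Cdh1, Sftpa1, Sftpb and Nkx2-1 were detected on none of them. All 6 mesenchymal markers (Vim, Col1a1, Col1a2, Pdgfrb, Acta2 and Thy1) were well above background on all 5. The summed Cy5 signal of the 12 epithelial markers was 1350 to 4190 in Control and 1870 to 2910 in D3, and that of the 6 mesenchymal markers 128000 to 657000 in Control and 139000 to 357000 in D3. Col1a1 was called lower at every dose, with log2 changes of -0.88, -1.08 and -1.34, as was Col1a2 (-0.77, -1.24 and -1.52), while Pdgfrb (-0.97 and -1.34) and Krt7 (-0.79 and -0.85) were called lower at D2 and D3 and no other marker was called. The part of these markers in the changes of noncoding transcripts was not tested, and in bulk RNA fewer cells of a type and less RNA per cell cannot be told apart.

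Most noncoding probes (443 of 743) were detected on some arrays and not on others. Detection required a Cy5 signal more than 3 trimmed SDs over the trimmed mean of the array's negative controls. By this measure 225 NR_ probes (30.3%) were detected on all 22 arrays and 75 (10.1%) on none, against 34.6% and 11.6% of all probes. In at least 4 arrays of a group, 415 NR_ probes (55.9%) were detected, against 60.1% of all probes. By type these were 13 of 15 probes of small structural RNAs, 125 of 210 of pseudogenes and 217 of 435 (49.9%) of long noncoding RNAs.

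No difference between a dose and Control in the number of NR_ probes detected was larger than the spread between arrays. The number was 393 ± 99.2 (SD, n = 5) in Control, 396 ± 72 (n = 6) in D1, 411 ± 54.3 (n = 5) in D2 and 426 ± 36.8 (n = 6) in D3. The differences from Control were 3.2, 18.6 and 33.2 probes, with p = 0.95, 0.738 and 0.444 by a two-sided exact permutation test and 0.95 for each after Benjamini-Hochberg adjustment over the 3 doses. The smallest p this design allows is 0.00433 for D1 and D3 and 0.00794 for D2. Single arrays ranged from 288 (Control replicate 5, slide 4) to 507 (Control replicate 3, slide 3).

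In unexposed cells most detected noncoding transcripts lay near the reference. Among the 289 NR_ probes detected on at least 4 Control arrays, the median log2 ratio was 0.05, with quartiles of -0.37 and 0.44. At least 2-fold above the reference were 25 (8.65%, against 5.74% of all probes) and at least 2-fold below it 20 (6.92%, against 7.73%). These ratios say how FE1 cells stand against the pool and not how abundant a transcript is, and since no array had the dyes swapped, they also hold any dye bias of the probe.

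The highest ratios belonged to Speer1, of a gene family best known from testis, at 3.89 ± 0.46 (SD, n = 5) and to Mir99ahg, a microRNA host, at 3.15 ± 0.72. The reference signal of Mir99ahg was well above background on only 2 of the 5 Control arrays. Speer6-ps1, a pseudogene of the Speer family, followed at 2.55 ± 0.56, and Snora74a, an H/ACA box snoRNA, at 2.38 ± 0.95. A second Speer1 probe read -0.10 ± 0.22 and was detected on 2 of 5 Control arrays, so the high ratio rests on a single probe. At the other end stood the 3 probes of the long noncoding RNA Gm10845 (-5.53 ± 0.09, -4.64 ± 0.29 and -4.48 ± 0.20), both probes of the histocompatibility pseudogene H2-K2 (-3.73 ± 0.35 and -3.67 ± 0.34) and the accession NR_001592 (-3.63 ± 0.31, n = 5). Whether probes of Speer and histocompatibility genes also bind RNA of their relatives was not tested. None of these transcripts other than Snora74a was called at any dose.

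**Figure D1:**
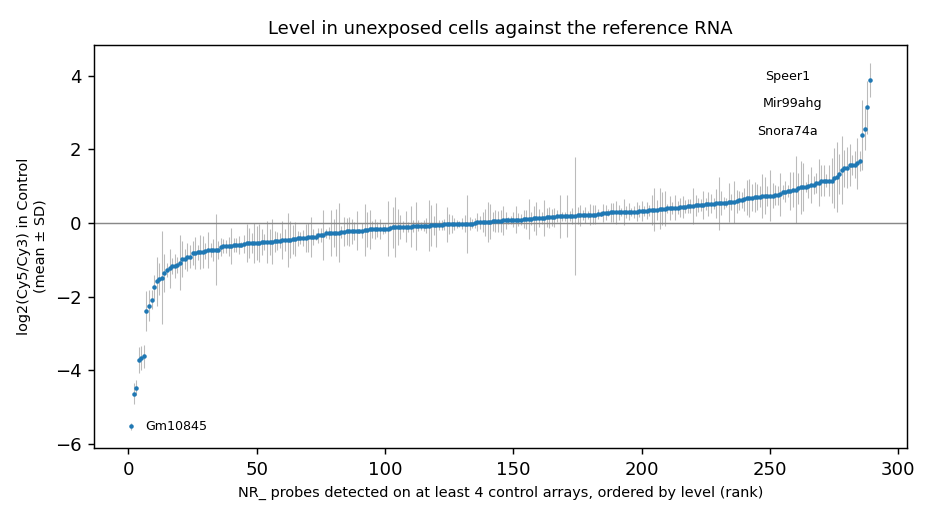
Mean log2 ratio to the reference RNA in Control (vertical axis, bars are the SD over the Control arrays) of the 289 NR_ probes detected on at least 4 Control arrays, in order of level (horizontal axis, rank). Most points lie near 0, and the ends reach 3.89 (Speer1) and -5.53 (Gm10845).

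After exposure to Mitsui7 more noncoding transcripts were called higher than lower at each dose. Calls took an adjusted p of 0.05 or less over all probes, a 1.5-fold change or more, and detection on 4 or more arrays of either group. At D1, 14 of 368 detected NR_ probes were called (3.8%, against 3.32% of all detected probes), 12 higher (3.26%, against 1.35%) and 2 lower (0.543%, against 1.96%). At D2, 25 of 366 were called (6.83%, against 5.69%), 19 higher (5.19%, against 2.72%) and 6 lower (1.64%, against 2.97%). At D3, 30 of 396 were called (7.58%, as for all probes), 22 higher (5.56%, against 3.34%) and 8 lower (2.02%, against 4.24%).

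Their share of calls was thus near the background at each dose, while the higher calls made up 85.7%, 76% and 73.3% of NR_ calls and 40.8%, 47.7% and 44% of all calls. The median change of detected NR_ probes was 0.01, 0.03 and 0.03 on the log2 scale, beside 0.01, 0.01 and 0.01 for all detected probes. The 3 comparisons share the Control arrays. In all, 32 probes of 29 genes were called at some dose, 14 probes at all 3 doses (12 higher, with Snord123 and A930003A15Rik lower), 9 at D2 and D3, 7 at D3 alone, and 2, Mir17hg and 4933439C10Rik, at D2 alone. Without D1 replicate 1 and D2 replicate 2 the calls were 15, 30 and 34. With median centring in place of loess they were 4, 12 and 18, of which 3, 12 and 18 were among the calls above, and the split at D1 was then 2 higher and 2 lower.

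**Figure D2:**
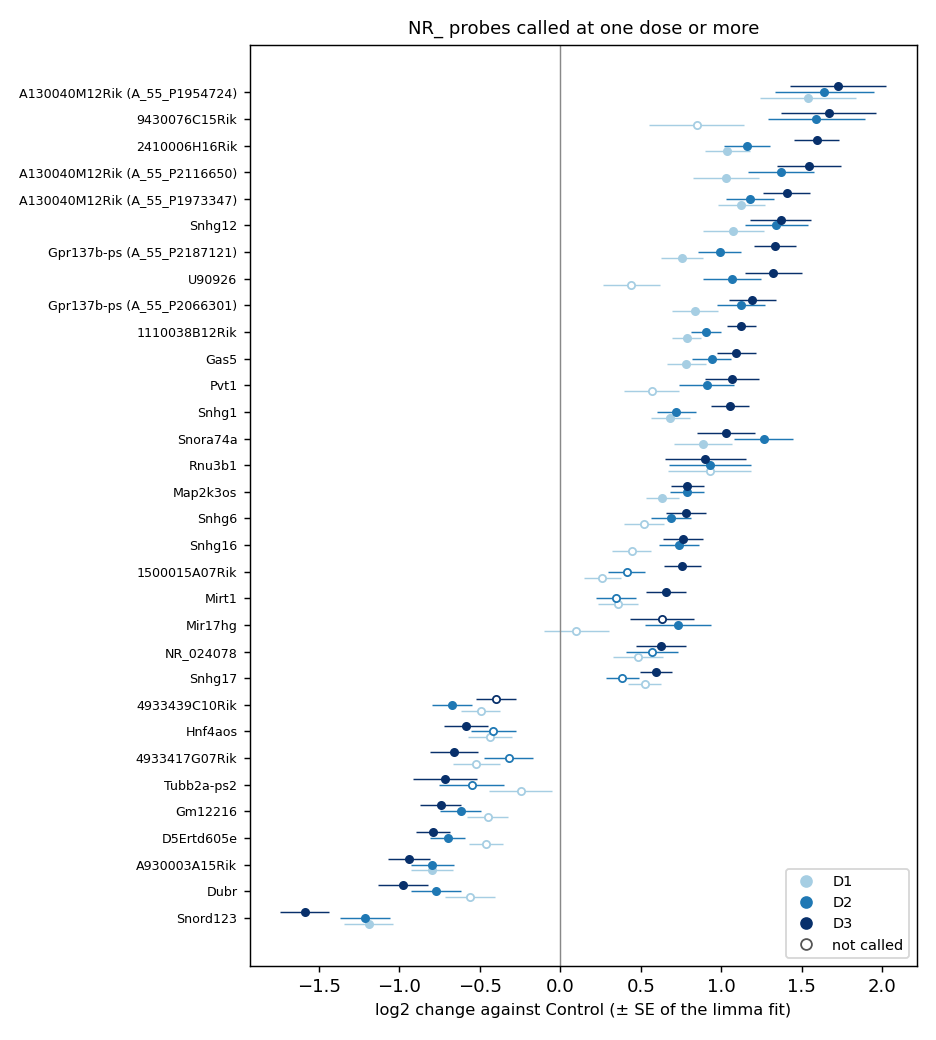
Log2 change against Control (horizontal axis, bars are the SE of the limma model) of the 32 NR_ probes called at a dose or more, with the 3 doses in 3 shades and open points where the probe was not called. Snord123 is lowest at -1.59 in D3 and A130040M12Rik highest at 1.73, and the falls of A930003A15Rik and Hnf4aos are bounds.

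Most snoRNA host transcripts on the array were higher at the upper doses. Of the 25 genes listed as hosts, 12 were on the array under an NR_ accession and all 12 were detected. Higher were 5 at D1 (1110038B12Rik, 2410006H16Rik, Gas5, Snhg1 and Snhg12), 7 at D2 (with Snhg16 and Snhg6) and 8 at D3 (with Snhg17), and none was lower. The higher calls made up 41.7%, 58.3% and 66.7% of the list, beside 1.35%, 2.72% and 3.34% of all detected probes. The median change of the 12 was 0.52 at D1, 0.71 at D2 and 0.77 at D3 on the log2 scale, where the median of all detected NR_ probes was at most 0.03. The list was chosen with earlier results of these data known, so these shares and medians describe its members and are no test of them. The other 4 hosts were not called at any dose, with changes at D3 of 0.32 for Snhg7, 0.22 for Dancr, -0.07 for Snhg3 and -0.27 for Snhg10.

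2410006H16Rik, host of Snord49a, Snord49b and Snord65, had the largest rise of the hosts at D3. Its log2 ratios in Control were -0.92, -1.19, -1.52, -1.05 and -1.16, and in D2 they were 0.59, -0.16, -0.17, -0.34 and 0.02. The 6 D1 arrays ranged from -0.44 to 0.15 with a median of -0.22, and the 6 D3 arrays from 0.13 to 0.62 with a median of 0.41. Every exposed array lay above every Control array. The changes were 1.04, 1.16 and 1.59 (SE 0.14, 2.05-, 2.23- and 3.02-fold), with adjusted p = 0.00013, 2.87e-05 and 2.18e-07 by limma.

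1110038B12Rik, host of Snord52, had a narrow spread in each group. In Control it read -0.52, -0.52, -0.65, -0.59 and -0.66, and in D2 0.32, 0.12, 0.30, 0.32 and 0.53. D1 ranged from -0.09 to 0.47 (median 0.20) and D3 from 0.46 to 0.65 (median 0.52). No exposed array overlapped Control, and the D3 arrays lay close together at the top. The rise was 0.79, 0.91 and 1.13 (SE 0.09, 1.72-, 1.88- and 2.18-fold), with limma adjusted p = 2.24e-05, 3.28e-06 and 7.17e-08, the last being the smallest among NR_ probes.

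Gas5 is known to accumulate in cells whose growth has stopped. Its called probe read 0.46, 0.41, 0.38, 0.81 and 0.33 in Control and 1.59, 1.02, 1.54, 1.55 and 1.38 in D2. The D1 arrays lay between 0.84 and 1.52 (median 1.24) and the D3 arrays between 1.27 and 1.75 (median 1.51). Control replicate 4 stood apart at 0.81, just under the lowest D1 array, and no exposed array overlapped Control. The changes were 0.78, 0.94 and 1.09 (SE 0.12), with limma adjusted p = 0.000502, 5.24e-05 and 3.68e-06. The 2 other Gas5 probes were detected and not called at any dose, with 0.14 and -0.05 at D3, so the rise rests on 1 of 3 probes.

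Snhg1, which carries Snord22 and other snoRNAs and lies next to the amino acid transporter gene Slc3a2, read 0.26, 0.18, -0.13, -0.30 and -0.18 in Control. It read 1.02, 0.83, 0.75, 0.32 and 0.51 in D2, 0.27 to 0.94 in D1 (median 0.59) and 0.64 to 1.55 in D3 (median 0.80). The lowest D1 array lay just above the highest Control array, and the D3 arrays were clear of Control. The changes were 0.68, 0.72 and 1.05 (SE 0.12), with limma adjusted p = 0.00173, 0.000783 and 5.47e-06. Slc3a2 itself was called at D3, with a change of 0.92 (limma adjusted p = 0.0113), and was not called at D1 (0.63) and D2 (0.54).

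Snhg12, host of Snora16a, Snora44, Snora61 and Snord99, had values on 4 of 5, 4 of 6, 3 of 5 and 4 of 6 arrays of Control, D1, D2 and D3, since its spots on the other arrays bore outlier marks. The Control values were -0.15, -0.63, -0.34 and -0.97, the D2 values 1.15, 0.42 and 0.71, the D1 range -0.03 to 0.92 and the D3 range 0.29 to 1.04. No measured exposed array overlapped Control. The changes were 1.08, 1.34 and 1.37 (SE 0.19, 0.20 and 0.19), with limma adjusted p = 0.00521, 0.000796 and 0.000304. The call of Snhg12 at D1 was lost without a slide term, with the outlier-marked spots kept, with the deposited log2 table and without slide 4 (limma adjusted p = 0.0547 to 0.201). With median centring the calls of Snhg12 at D1 and D2 were lost (limma adjusted p = 0.358 and 0.0668).

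The other 3 hosts were first called above D1. Snhg16, host of Snord1a to Snord1c, had changes of 0.44, 0.74 and 0.76 (SE 0.12), and its Control and D3 arrays did not overlap. Snhg6, host of Snord87, had changes of 0.52, 0.69 and 0.78 (SE 0.12 to 0.13), and D3 replicate 5 lay within the Control range at -0.62. Without a slide term neither call of Snhg6 remained (limma adjusted p = 0.142 at D2 and 0.0811 at D3). Snhg17 had changes of 0.52, 0.38 and 0.59 (SE 0.10), so at D3 it passed the 1.5-fold threshold by a narrow margin (1.51-fold). It was under that threshold when any 1 of Control replicates 2, 3 and 4 or D3 replicates 1, 2 and 3 was left out. A second Snhg16 probe was detected and read 0.15 at D3, not called. With median centring no call of these 3 hosts remained. The limma adjusted p was then 0.367 and 0.305 for Snhg6 at D2 and D3, 0.236 and 0.25 for Snhg16, and 0.105 for Snhg17 at D3.

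**Figure D3:**
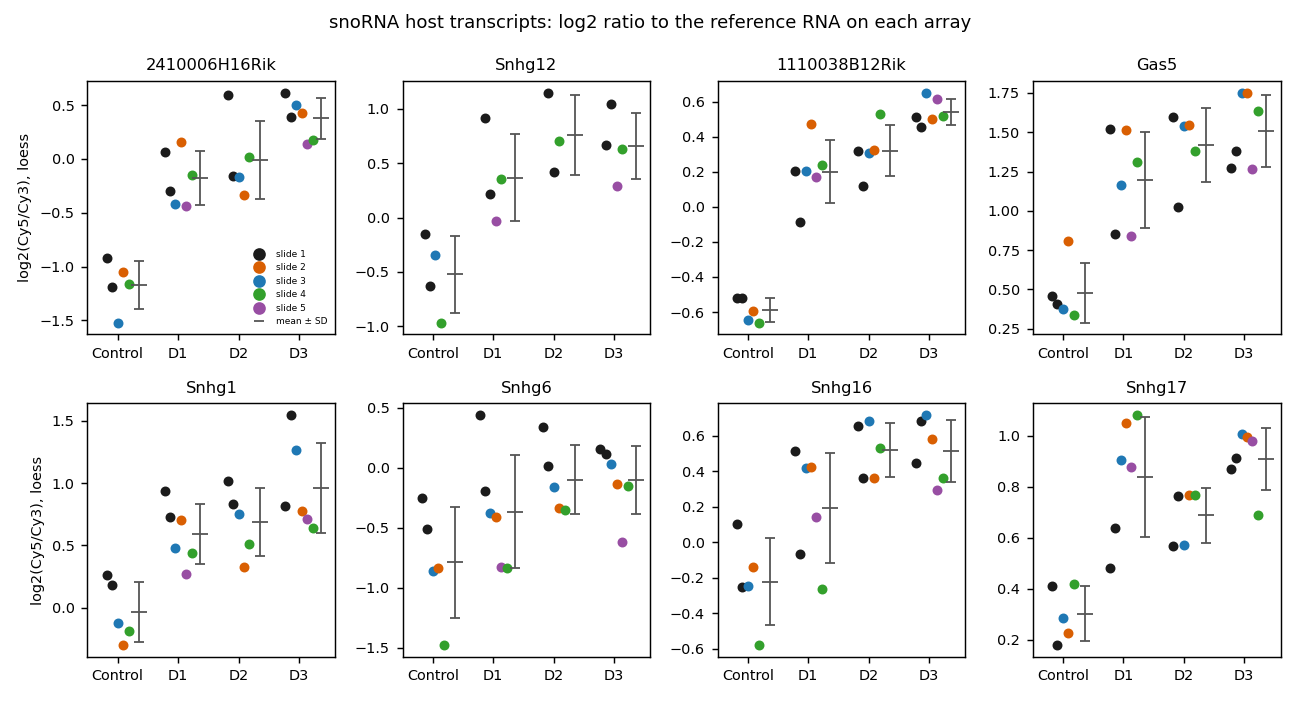
Log2 ratio to the reference RNA (vertical axis) of the called probe of 8 snoRNA host transcripts on each array, by dose group (horizontal axis) and coloured by slide, with the mean and SD of each group. For 2410006H16Rik and 1110038B12Rik every exposed array lies above every Control array, and for Snhg12 the arrays with outlier marks have no point.

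Slides 1 to 4 each hold Control and every dose, and slide 5 holds no Control array. Within slides the sign of the change was the same on every slide with a value for 14 of 14 called NR_ results at D1, 25 of 25 at D2 and 29 of 30 at D3. Of these results 11, 23 and 28 had a value on all 4 slides. They were called on the same arrays with slide in the model, so the agreement of signs is no separate test. At D3 the change from Control within slides 1 to 4 was 1.34 to 2.03 for 2410006H16Rik, 1.00 to 1.30 for 1110038B12Rik, 0.89 to 1.38 for Gas5 and 0.83 to 1.39 for Snhg1. With median centring 0, 1 and 5 hosts were called at D1, D2 and D3, and the changes were 0.90, 1.27 and 1.55 for 2410006H16Rik and 0.64, 1.02 and 1.09 for 1110038B12Rik. Without a slide term 3 were called at D1.

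Genes that carry snoRNAs were also counted from the RefSeq table rather than from the list. For NR_ probes this count is not separate from the list, since every gene called in it is a called list member on the same probe. Of 15 long noncoding RNA genes of NR_ probes with a snoRNA gene inside, which leaves out Gas5 because its accession is not in the table, 11, 11 and 12 were detected at D1, D2 and D3, and 4, 6 and 7 of them were called, all higher. The calls made up 36.4%, 54.5% and 58.3% of those detected, beside 2.34%, 5.37% and 6.29% for the other NR_ genes, Gas5 among them. The median change of these hosts was 0.52, 0.69 and 0.68, beside 0.00, 0.03 and 0.02 for the other NR_ genes. Among protein coding genes only snoRNA genes whose symbol begins with Snora, Snord or Scarna were counted, whereas for NR_ genes every snoRNA gene was. The sets are thus not defined alike, and protein coding hosts of other snoRNA genes are among the other protein coding genes. Of the protein coding genes with a snoRNA gene inside by this rule, 68, 68 and 69 were detected and 2, 5 and 7 called (2.94%, 7.35% and 10.1%), beside 5.33%, 9.01% and 12% of other protein coding genes. Among the protein coding genes with a snoRNA gene inside, 2, 4 and 6 of the calls were higher. Among the other protein coding genes, 293 of 709, 557 of 1178 and 746 of 1641 calls were. The median change of the former was 0.10, 0.17 and 0.10, and 45, 50 and 50 of their changes were above 0. Of the other protein coding genes, 6654 of 13307, 6534 of 13077 and 6988 of 13672 had a change above 0.

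**Figure D4:**
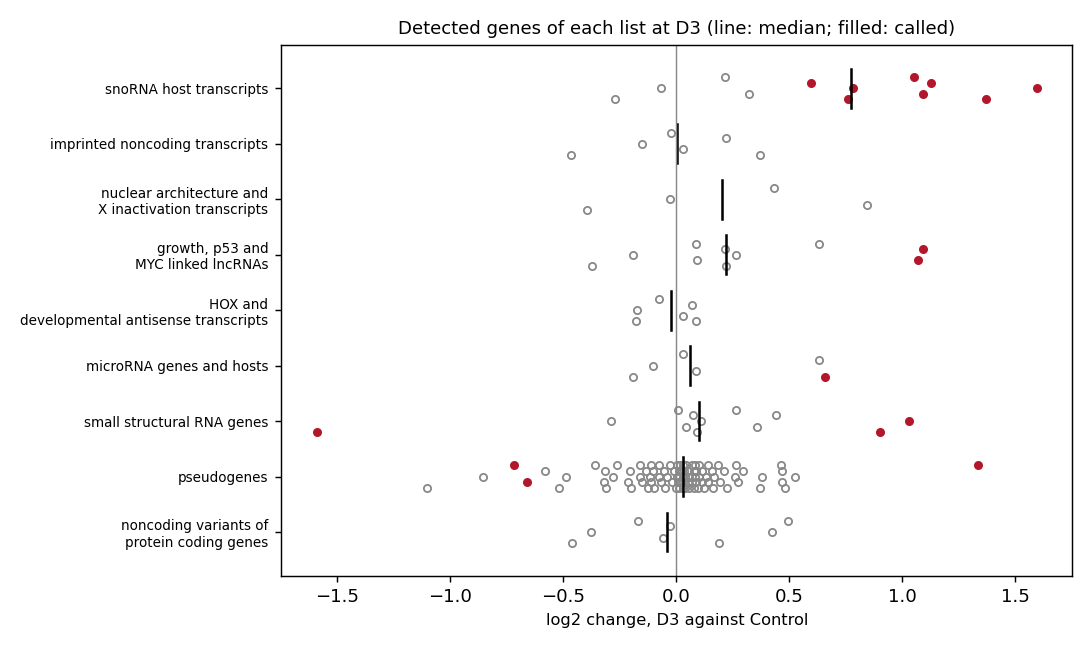
Log2 change at D3 against Control (horizontal axis) of the detected genes of each list (rows), 1 point a gene, filled where called, with a line at the median. The median of the snoRNA hosts is 0.77, and the medians of the other lists lie between -0.04 and 0.22.

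A list of 12 small structural RNA genes was detected in full (over all accessions of this type, 13 of 15 were), with 1 higher and 1 lower at D1 and 2 higher and 1 lower at D2 and D3. The calls made up 16.7%, 25% and 25% of the list, beside 3.32%, 5.69% and 7.58% of all detected probes. The labelling kit primes on poly(A) tails, which mature snoRNAs lack, and which form of RNA gave these signals was not tested. Snora74a read 3.74, 2.87, 2.03, 2.01 and 1.27 in Control and 4.04, 4.31, 3.20, 3.40 and 3.30 in D2, with ranges of 2.68 to 3.77 in D1 and 2.99 to 3.96 in D3. The slide 1 arrays were the highest in every group, and Control overlapped all doses. With slide in the model the changes of Snora74a were 0.89, 1.26 and 1.03 (SE 0.18), with limma adjusted p = 0.00585, 0.000157 and 0.000584. The calls at D1 and D3 were lost without a slide term (limma adjusted p = 0.302 and 0.0989) and with median centring (0.292 and 0.0511), and that at D1 also with only the 2 groups compared, without slide 2 or without slide 3 (0.0577 to 0.0678). At D3, the change within slides 1 to 4 was 0.53, 1.11, 0.96 and 2.07.

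Snord123, a box C/D snoRNA, was the most strongly lowered member of the set. It read 2.12, 1.37, 1.38, 1.11 and 0.63 in Control and 0.36, 0.24, 0.04, 0.07 and -0.17 in D2. D1 ranged from -0.52 to 0.52 (median 0.12) and D3 from -0.81 to 0.28 (median -0.39). Every exposed array lay below every Control array. The changes were -1.19, -1.21 and -1.59 (SE 0.15, 2.28-, 2.32- and 3.01-fold lower), with limma adjusted p = 6.99e-05, 4.05e-05 and 5.67e-07. Its nearest protein coding neighbour in the RefSeq table, the semaphorin gene Sema5a, had changes of -0.39, -0.57 and -0.72 and was called at D3 (limma adjusted p = 0.000465).

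Rnu3b1, a U3 RNA that takes part in cutting the ribosomal RNA precursor, had changes of 0.93, 0.93 and 0.90 (SE 0.26, 0.26 and 0.25), called at D2 and D3 (limma adjusted p = 0.0362 and 0.0274). Its Control arrays spread from -0.85 to 0.47 and its D3 arrays from 0.08 to 1.20, which overlap. Each call was lost when any 1 of Control replicates 2, 3 and 5 was left out, at D2 also without D2 replicate 2, 3, 4 or 5 and at D3 without D3 replicate 2, 4, 5 or 6, and without Control replicate 2 the change at D3 was 0.69 with adjusted p = 0.0965. Rmrp, the RNA of the RNase MRP complex, Rpph1, that of RNase P, and Terc, the template RNA of telomerase, were detected and not called, with 0.27, 0.11 and 0.09 at D3.

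Pvt1 is the long noncoding gene next to the growth regulator Myc. Its called probe read -0.34, -0.67, -0.76, -0.49 and -0.74 in Control and 0.85, -0.02, 0.40, 0.14 and 0.17 in D2, and D3 ranged from 0.00 to 0.66 (median 0.43). D2 and D3 were clear of Control, and D1 (-0.58 to 0.66 on 5 arrays) overlapped it. The changes were 0.57, 0.91 and 1.07 (SE 0.17), called at D2 and D3 (limma adjusted p = 0.00248 and 0.000263). With median centring neither call remained, at changes of 1.00 and 1.05 (limma adjusted p = 0.177 and 0.0772). A second Pvt1 probe had changes of 0.09, 0.22 and 0.30 and was not called. Myc was called higher at every dose, by 0.94 at D1 and 1.45 at D3 (adjusted p = 0.000988, 5.03e-06 and 2.57e-06).

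Of the 10 growth, p53 and MYC linked genes on the array, all detected, Gas5 was called at D1, Gas5, Pvt1 and Mir17hg at D2, and Gas5 and Pvt1 at D3, with list medians of 0.16, 0.13 and 0.22. The calls made up 10%, 30% and 20% of the list, beside 3.32%, 5.69% and 7.58% of all detected probes. Tug1, read by 3 probes, was not called, with 0.09 to 0.32 at D3. Mir17hg, whose microRNA sequences are given above, read 0.68, 0.09, 0.45, 0.73 and -0.19 in Control and 1.23, 0.49, 1.49, 1.03 and 1.18 in D2. D3 ranged from 0.84 to 1.21 and was clear of Control, and D1 ranged from -0.03 to 1.06 across it. The changes were 0.10, 0.73 and 0.63 (SE 0.20), with limma adjusted p = 0.891, 0.0399 and 0.059. The call at D2 was lost without Control replicate 2, 3 or 5 or without D2 replicate 1, 3, 4 or 5, with changes of 0.62 to 0.75 and adjusted p of 0.0702 to 0.146. When the model took replicate number rather than slide as its block (the replicate block), Mir17hg was called at D3 as well (0.73, limma adjusted p = 0.00631).

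Among the 7 genes whose symbol begins with Mir, Mirt1 was called at D3 (0.66, SE 0.12, adjusted p = 0.00125 by limma), and a second Mirt1 probe, not called, had 0.09 there. The call was lost without D3 replicate 1 (0.54). Mir22hg and Mir100hg were not called, with -0.19 and 0.09 at D3. No gene of this list was called at D1. Of the 6 detected, 16.7% were called at D2 (Mir17hg) and at D3 (Mirt1), beside 5.69% and 7.58% of all detected probes.

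The largest rises of the set belonged to transcripts whose accessions the RefSeq gene table does not list, so no role is given for them here. A130040M12Rik has 3 probes, all called at every dose, with D3 changes of 1.73 (SE 0.30), 1.41 (SE 0.15) and 1.55 (SE 0.20). Its probe with the highest Cy5 signal read -0.36, -0.85, -0.76, -1.45 and -1.47 in Control and 0.98, 0.93, 0.94, 0.39 and 0.09 in D2. D1 ranged from -0.34 to 1.94 (median 0.27) and D3 from 0.30 to 1.61 (median 0.49). All exposed arrays lay above Control on this probe, by the least margin for D1 replicate 4. For another of the probes, D1 and D2 overlapped Control on some arrays.

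9430076C15Rik read 1.19, 0.26, 0.35, 0.27 and -0.12 in Control and 2.60, 1.64, 2.13, 1.58 and 1.96 in D2, with D3 from 1.36 to 3.05 (median 1.91). D2 and D3 were clear of Control, whereas D1 (-0.01 to 2.04) overlapped it. The changes were 0.85, 1.59 and 1.67 (SE 0.29 to 0.30), called at D2 and D3 with limma adjusted p = 0.00209 and 0.000676.

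1500015A07Rik (0.76, SE 0.12, limma adjusted p = 0.000153) and NR_024078 (0.63, SE 0.16, adjusted p = 0.0132) were higher at D3 alone. The call of NR_024078 was lost without Control replicate 2 or 5 or D3 replicate 6, and its second probe read 0.18 and was not called. With the replicate block NR_024078 had 0.53 and was under the 1.5-fold threshold.

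U90926 was the single NR_ probe called between 2 doses. It read -0.40, 0.17, -0.10, -0.25 and -0.48 in Control and 0.78, 0.74, 0.73, 0.74 and 1.29 in D2. D1 ranged from -0.12 to 0.74 (median 0.17) and D3 from 0.68 to 1.65 (median 1.02). D1 sat between Control and D3, overlapping both, while D2 and D3 were clear of Control. Against Control the changes were 0.44, 1.07 and 1.32 (SE 0.18), called at D2 and D3 (limma adjusted p = 0.000811 and 3.78e-05). D3 exceeded D1 by 0.88 (SE 0.17, 1.84-fold, adjusted p = 0.0224), and this call was lost without D1 replicate 2, D1 replicate 6, D3 replicate 2 or D3 replicate 3.

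No other difference between doses was called. Between D2 and D1, 0 of 383 detected NR_ probes passed (0% of all probes), with 32 under 0.05 before adjustment, and the lowest adjusted p by limma was 0.856. Between D3 and D2, 0 of 409 passed (0% of all probes), with 21 under 0.05 before adjustment. Between D3 and D1, U90926 was 1 of 402 (0.249%, against 0.26% of all probes in either direction and 0.0423% higher). Without D1 replicate 1 and D2 replicate 2, 3 NR_ probes were called between D3 and D1. The differences in count between the doses above are therefore differences in how many probes passed against Control.

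Map2k3os, read from the strand opposite the p38 kinase activator gene Map2k3, rose at every dose by 0.63, 0.79 and 0.79 (SE 0.10 to 0.11), with limma adjusted p = 0.000984, 7.99e-05 and 3.16e-05. Its Control arrays ranged from 0.30 to 0.87, D2 from 1.26 to 1.57 and D3 from 1.28 to 1.75, without overlap. At D1 it was under the 1.5-fold threshold without Control replicate 4 or D1 replicate 3. Map2k3 was not called, with -0.26, -0.34 and -0.34. Lbp, the lipopolysaccharide binding protein gene and protein coding neighbour of Snhg17, was called lower at every dose (-1.08, -1.16 and -1.12).

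Of 163 pseudogenes on the array, 87, 87 and 93 were detected and 1, 1 and 3 called at D1, D2 and D3 (1.15%, 1.15% and 3.23%, beside 3.32%, 5.69% and 7.58% of all detected probes), with medians of 0.00, 0.06 and 0.03. Gpr137b-ps, a pseudogene of a lysosomal membrane protein gene, was called higher at every dose on both of its probes. The probe without missing values read -2.26, -1.81, -1.55, -1.45 and -1.64 in Control and -0.62, -0.90, -0.52, -0.57 and -0.48 in D2, with D1 from -1.19 to -0.59 and D3 from -0.84 to -0.15. No exposed array overlapped Control, and all groups stayed below the reference. The changes were 0.84, 1.12 and 1.19 (SE 0.14 to 0.15) on this probe and 0.76, 0.99 and 1.33 (SE 0.13) on the other. With median centring neither probe was called at D1 (limma adjusted p = 0.104 and 0.314). Whether the probes also bind the parent gene's message was not tested. Tubb2a-ps2, a tubulin pseudogene, and 4933417G07Rik were lower at D3 alone (-0.72, SE 0.20, and -0.66, SE 0.15), and the call of Tubb2a-ps2 was lost without Control replicate 2 or 3 or D3 replicate 2, 3, 4 or 6.

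Besides Snord123 and the pseudogenes Tubb2a-ps2 and 4933417G07Rik, the lowered transcripts were long noncoding RNAs. Dubr, named for its place upstream of Dppa2, read 1.26, 0.61, 0.05, 0.09 and -0.08 in Control and -0.13, -0.16, -0.58, -0.50 and -0.59 in D2, with D3 from -1.07 to 0.28 (median -0.74). D3 replicate 1 lay within the Control range and the other D3 arrays below it, and the slide 1 arrays read highest in Control. The changes were -0.56, -0.77 and -0.98 (SE 0.15 to 0.16), called at D2 and D3 (limma adjusted p = 0.00428 and 0.000232), and the call of Dubr at D2 was lost without a slide term (0.0941) and without slide 1, where the change was -0.57. D5Ertd605e (-0.70 and -0.79, SE 0.11 and 0.10) and Gm12216 (-0.62 and -0.74, SE 0.13) were also lower at D2 and D3, and 4933439C10Rik at D2 (-0.67, SE 0.12). Gm12216 was under the 1.5-fold threshold at D2 without Control replicate 1 or D2 replicate 2 or 4.

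A930003A15Rik and Hnf4aos, the transcript opposite the liver and gut transcription factor gene Hnf4a, were not well above background on any array of the lowered groups, so their falls are bounds. A930003A15Rik was at least 1.55-fold lower at D1, 1.53-fold at D2 and 1.56-fold at D3 (limma adjusted p = 0.00097, 0.000714 and 5.36e-05). Only 3 of its 5 Control arrays were well above background, and its calls were lost without Control replicate 1, 2, 3 or 4, when it no longer passed detection. Hnf4aos was at least 1.33-fold lower at D3 (adjusted p = 0.00782), with 2 of 5 Control arrays well above background, and within slide 4 its change was 0.18 in the other direction. The call was lost without Control replicate 1, 3 or 4 or D3 replicate 2, 3, 4 or 5, and with the replicate block Hnf4aos had -0.57, under the 1.5-fold threshold.

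The nuclear and imprinted transcripts gave no call, in lists so short that the background of 3.32%, 5.69% and 7.58% of all detected probes amounts to less than 1 call a list. Of 7 nuclear architecture and X inactivation genes found by name on the array 4 or 5 were detected at a dose, of 8 imprinted genes 5 or 6, and of 10 HOX and developmental antisense genes 4 to 6, with no call at any dose. The 44 targets left without a gene name could not be placed in any list. A listed gene may therefore have a probe that is not counted here. Neat1, the scaffold of paraspeckles, read -1.19, -1.67, -1.04, -1.32 and -2.69 in Control and -1.19, -1.08, -0.13, -1.09 and -1.34 in D2. In D3 all 6 values lay between -1.12 and -0.10, and Control replicate 3 lay within that range. Its change at D3 was 0.84 (SE 0.32, limma adjusted p = 0.131), and it was called without slide 2 (0.91) or with only the 2 groups compared in the model (0.90). Malat1, a partner of nuclear speckles, had a change of 0.43 (SE 0.37), with values on 3 Control arrays, and was not called. The imprinted genes Meg3 and Kcnq1ot1 had 0.22 and 0.37 at D3, and Xist, the RNA of X inactivation, was detected in D2 alone with 0.10 there. Of the 10 genes typed as protein coding, 7 or 8 were detected and none was called.

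Probes of the same gene were not always called together. Among called genes with several NR_ probes, all probes of A130040M12Rik (3) and Gpr137b-ps (2) were called alike. Gas5, Pvt1, Snhg16, Mirt1, A930003A15Rik and NR_024078 each had a called probe and at least 1 that was not. The uncalled probes of A930003A15Rik and NR_024078 were not detected on enough arrays to be called. The spread between probes at D3 was 1.14 on the log2 scale for Gas5, 0.77 for Pvt1, 0.61 for Snhg16 and 0.57 for Mirt1. The probe sequences were not used here, so which exons or variants each probe reads is not known.

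**Figure D5:**
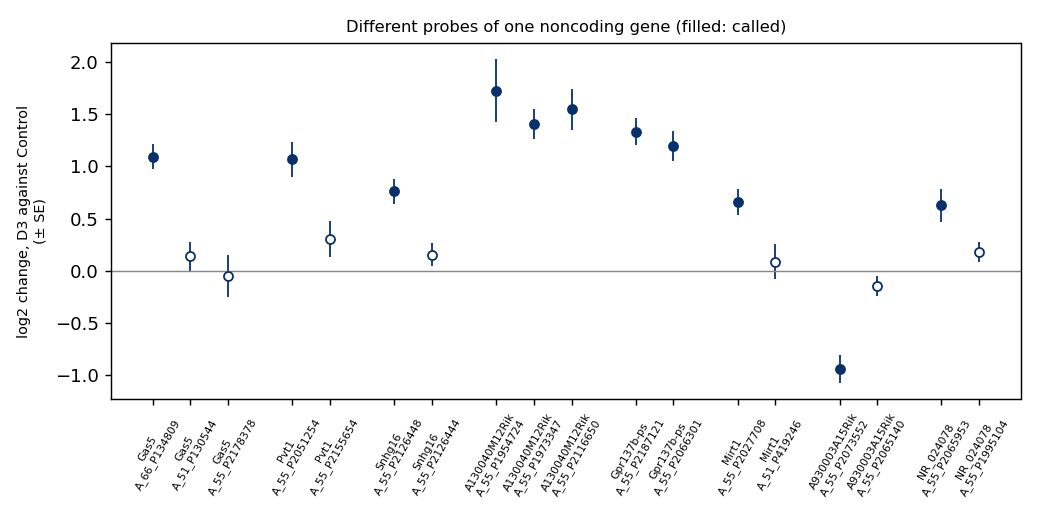
Log2 change at D3 against Control (vertical axis, bars are the SE of the limma model) of each NR_ probe of 8 genes with several probes and a call (horizontal axis, gene and probe), filled where called. All probes of A130040M12Rik and Gpr137b-ps are called, and 1 probe each of Gas5, Pvt1, Snhg16, Mirt1, NR_024078 and A930003A15Rik, whose fall is a bound.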

How the data were processed

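Total RNA of FE1 cells (22 samples) was hybridised by the authors to two-colour Agilent arrays of 62976 spots on 5 slides, with the sample in Cy5 and Universal Mouse Reference RNA in Cy3 and no dye swap. Per the file headers, Feature Extraction 10.7.3.1 read the scans, whereas the methods of the study name an earlier version. The deposited scanner tables give the median signal of each spot as an intensity, and these were used without background subtraction after loess normalisation in each array. They also give a log10 ratio (Cy5 over Cy3) that the software had already corrected and of which 25.9% of values are exactly 0. The deposited value table holds log2 ratios whose normalisation is not given in the sources used here. All 22 of its columns correlated best with their own array, and 18 of the 22 arrays with their own column, with a median correlation of 0.9849 and a lowest of 0.8395. Both were used as alternatives.

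Spots marked as outliers by the scanner software (0.40% to 6.22% of an array) were set to missing, 3671 control spots were left out and the spots of a probe were combined by their median, which left 55681 probes. The detection limit of an array was the mean of its 308 negative control spots plus 3 SDs, both trimmed by 5%. Arrays give no read depth, so their number limits the precision. Samples were grouped by the dose in their labels.

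The study fitted MAANOVA with treatment and slide. Here lmFit and eBayes of limma 3.58.1 (R 4.3.3) were used with the same terms over all 22 arrays, with Benjamini-Hochberg adjustment over 55681 probes, so every adjusted p of a transcript is from that model. The code was tested on simulated data. Calls took an adjusted p of 0.05 or less, a 1.5-fold change and detection on 4 arrays of either group. A bound set the mean of the brighter group against, on each array, the lowest signal among probes well above background or the probe's own signal, whichever was higher, in the Cy5 channel, and it is open to dye bias.

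Same-numbered arrays deviated together in all 31 pairs of groups sharing a number (correlation 0.174 to 0.855), so the numbers were taken as pairing the arrays. The numbers come from the sample titles, and 27 of the 31 pairs share a slide. In those pairs a shared number and a shared slide cannot be told apart, so the pairing is an assumption.

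The named transcripts were the 8 largest rises and falls at each dose among called probes detected in both groups, a set of well known noncoding RNAs, called members of the gene lists, and the 5 highest and lowest ratios in Control. The members and gene lists were chosen with earlier results of these data known, and the other transcripts named were chosen after their values were seen. Alternatives covered background correction, scaling, detection, thresholds, slide, groups fitted and single arrays left out. No value column lacked a sample.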

Additional observations from a re-analysis of the deposited data

Results flagged for a closer look

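In 6 of the 131 sets of 4 to 6 arrays with a value that were checked (4.58%, where chance gives about 1 in 20), the highest or lowest array stood apart from the others by Dixon's criterion. In D3, A130040M12Rik read 1.61 on replicate 2, with the nearest array at 0.75. Dubr read 0.28 on D3 replicate 1, with the nearest at -0.65, and 1500015A07Rik read 1.10 on the same array, with the nearest at 0.68. In D2, Hnf4aos read -0.06 on replicate 4, with the nearest at 0.31, and U90926 read 1.29 on replicate 5, with the nearest at 0.78. In Control, Gas5 read 0.81 on replicate 4, with the nearest at 0.46. All values are log2 ratios to the reference RNA, and no cause was tested.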

How the results depend on the processing

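Beside 14, 25 and 30 calls at D1, D2 and D3, 1 between D3 and D1, and 5, 7 and 8 snoRNA hosts higher, these counts differed by over 1.5 times under some alternatives. Median centring gave 4, 12 and 18 calls, 0 between D3 and D1 and 0, 1 and 5 hosts. A 2-fold threshold gave 6, 10 and 15 calls, 0 between D3 and D1 and 2, 2 and 5 hosts. No fold threshold gave 22 calls at D1, 49 at D3 and 4 between D3 and D1, and 8 hosts at D1. Without a slide term there were 3 hosts at D1. Between D3 and D1 the count was 0 without a slide term, with only the 2 groups compared, with the deposited log2 table, and without slide 1, 2 or 3, and 3 with the scanner log ratio or, chosen after seeing the data, without both D1 replicate 1 and D2 replicate 2. With the scanner log ratio 73.7% of D1 calls were higher. With only the 2 groups compared 63.9% of D3 calls were higher.

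With the replicate block in place of slide, which assumes that the numbers pair the arrays, the calls were 18, 29 and 36, with 2 between D3 and D1 and 0 in the other comparisons of doses, and 65.5% and 63.9% of the D2 and D3 calls were higher. The calls lower were then 4, 10 and 13, beside 2, 6 and 8. At D3 the block ended the calls of Hnf4aos and NR_024078 and added one of Mir17hg, and it changed the call of no other named transcript.

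Leaving out 1 array at a time gave 12 to 17, 23 to 26 and 27 to 33 calls at D1, D2 and D3, 0 between D2 and D1 and between D3 and D2, and 0 to 3 between D3 and D1. Of 2847 recomputed values of 96 changes of named transcripts, 2611 kept their side of the threshold, 224 lost the call and 12 gained it. Where the change was called before or after, 0 reversed direction. Changes called in neither were counted as kept even where the sign differed, as for Malat1 at D2 (-0.02, and 0.14 with median centring). Of 69 called changes, 22 kept the call under every alternative and 56 whichever array was left out. The cause was not tested. No scaling moved the median of all probes by over 0.1 on the log2 scale. Dim probes limit detection, with 288 to 507 of 743 NR_ probes detected on an array.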
